A study of Mus musculus with 12 samples.

Results

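First-intron sites are binding sites of the nuclear receptor Rev-Erbα that lie in the first intron of a transcript, in brown adipose tissue of mice kept in the cold. They were chosen as the rows of the deposited 4 °C peak list that the authors' annotation places in intron 1 of a transcript. This gave 1924 of the 11227 sites of that list, or 17.1% (95% exact Clopper-Pearson interval 16.4% to 17.8%). The same annotation placed 362 of the 2183 sites of the 29 °C list in first introns, or 16.6% (15.0% to 18.2%), so the intervals of both shares overlapped. Introns of higher number held 3446 sites (30.7%) of the 4 °C list and 687 sites (31.5%) of the 29 °C list.

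The data came from 12 libraries of chromatin immunoprecipitation with sequencing (ChIP-seq), a method that counts DNA fragments pulled down with a protein. C57BL/6 mice of the HA-RevErba genotype were housed for 1 week at 4 °C, the labels' chronic cold (4 libraries), or at thermoneutrality of 29 °C (4 libraries), and WT mice gave 2 libraries at 4 °C and 2 at 29 °C. All 4 groups were brown adipose tissue put through anti-HA magnetic beads, so the WT libraries hold what the beads collect from tissue without the tag. The labels do not say how the HA tag was introduced, nor whether each library is 1 animal. Libraries held 26.97 to 37.3 M aligned reads, where M stands for mega. Mean depth of the HA-RevErbα libraries was 32.0 ± 3.80 M at 4 °C and 30.9 ± 4.68 M at 29 °C (SD, n = 4 each; two-sided exact permutation test, p = 0.714, smallest possible p = 0.0286). The values per site exist only for 4 pools, 1 a group, so temperatures could be compared by size and counting error and not by a test over libraries. In bulk tissue, fewer cells of a type and less binding per cell cannot be told apart.

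Rev-Erbα, the product of Nr1d1, binds AGGTCA-type DNA elements and represses transcription with the corepressor NCoR and histone deacetylase HDAC3. It gives the circadian clock its negative arm on Bmal1 (Arntl), and in brown fat it is known to restrain thermogenic and lipid-synthesis genes. First introns follow the first exon, are often the longest intron of a gene, and commonly carry enhancers near the transcription start site (TSS).

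Genes with a site at the TSS as well as in the first intron show how close these neighbouring elements lie. Of the genes with both whose TSS-proximal site lay within 250 bp before to 50 bp after the TSS, with 1 promoter in the RefSeq table, 4 with the highest TSS-site scores are shown. The promoters run from 250 bases before to 50 bases after the gene's start, 5′ to 3′ on the gene's strand, from RefSeq on GRCm38.p6, a later build than that of the peak coordinates (mm9). Capitals mark AGGTCA or GGGTCA on either strand.
Nr1d1 promoter: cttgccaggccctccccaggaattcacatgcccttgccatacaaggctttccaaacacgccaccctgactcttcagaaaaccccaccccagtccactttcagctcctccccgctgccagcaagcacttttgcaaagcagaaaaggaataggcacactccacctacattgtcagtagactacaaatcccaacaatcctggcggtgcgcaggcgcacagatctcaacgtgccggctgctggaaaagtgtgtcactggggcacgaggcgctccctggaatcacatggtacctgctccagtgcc
Galntl5 promoter: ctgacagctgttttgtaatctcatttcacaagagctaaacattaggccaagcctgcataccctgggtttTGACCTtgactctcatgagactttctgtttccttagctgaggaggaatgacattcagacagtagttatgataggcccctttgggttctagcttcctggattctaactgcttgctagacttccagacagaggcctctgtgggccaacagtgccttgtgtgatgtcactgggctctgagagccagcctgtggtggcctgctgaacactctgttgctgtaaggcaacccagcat
Slc25a34 promoter: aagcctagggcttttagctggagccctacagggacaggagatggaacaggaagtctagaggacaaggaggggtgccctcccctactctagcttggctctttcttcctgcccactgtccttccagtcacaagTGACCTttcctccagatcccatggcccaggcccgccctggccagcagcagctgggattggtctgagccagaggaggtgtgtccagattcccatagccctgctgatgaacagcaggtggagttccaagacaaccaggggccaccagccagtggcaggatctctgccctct
Hsd11b1 promoter: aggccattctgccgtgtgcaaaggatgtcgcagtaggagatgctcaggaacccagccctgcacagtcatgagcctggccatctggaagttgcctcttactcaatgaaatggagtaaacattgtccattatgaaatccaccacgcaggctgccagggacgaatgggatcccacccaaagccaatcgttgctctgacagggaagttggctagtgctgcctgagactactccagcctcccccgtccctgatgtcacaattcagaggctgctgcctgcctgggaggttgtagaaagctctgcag
The windows are chr11:98775328-98775627 (minus strand) for Nr1d1, chr5:25181230-25181529 (plus strand) for Galntl5, chr4:141623785-141624084 (minus strand) for Slc25a34 and chr1:193242311-193242610 (minus strand) for Hsd11b1. The motif AGGTCA stood once in the Galntl5 and once in the Slc25a34 window, both as TGACCT on the gene's strand, and neither motif stood in the other two windows. Of all 32851 promoters of 300 bases in the table, 16.3% hold AGGTCA, 13.7% hold GGGTCA and 27.5% hold either. No mm9 genome was used here, so the bases of the intron sites themselves are not shown.

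Nr1d1 carried both kinds of site in its own gene. Its TSS site, at chr11:98636591-98636791 in mm9, had 61.57 FPKM in the HA-RevErbα 4 °C pool and 34.80 FPKM in the HA-RevErbα 29 °C pool, against 2.96 FPKM in WT at 4 °C and 4.79 FPKM in WT at 29 °C. FPKM here are reads per kilobase of the 200 bp window per M reads of the pool. Its first-intron site, 1.55 kb downstream at chr11:98635042-98635242 and in a CpG island, had 21.89 FPKM at 4 °C and 6.26 FPKM at 29 °C, against 2.77 and 2.60 FPKM in WT at 4 °C and 29 °C. The 4 °C to 29 °C ratio was 1.77 (counting interval 1.57 to 2.0) at the TSS and 3.5 (2.71 to 4.57) in the first intron, and only the TSS site also had a peak in the 29 °C list. In Slc25a34, a mitochondrial carrier gene, the order of ratios was the other way round: 6.0 (3.88 to 9.65) at the TSS and 4.12 (3.21 to 5.34) in the first intron, with overlapping intervals. In Galntl5, of the GalNAc-transferase family, the ratio was 3.33 (2.43 to 4.64) at the TSS and 6.90 (4.14 to 12.2) in the first intron. In Hsd11b1, which regenerates active glucocorticoid, it was 4.77 (3.16 to 7.43) at the TSS and 4.33 (3.02 to 6.36) in the best first-intron site. The intervals overlapped in Galntl5 and in Hsd11b1 too. Over all 72 genes with both kinds of site, the highest-scoring first-intron site of the gene had the higher score in 40 genes and the higher ratio in 37. Their median ratio was 3.31 in the first intron and 3.14 at the promoter. Where a gene had more than 1 first-intron site, taking the best raises the first-intron score by construction. The 2 kinds of site were therefore not compared evenly.

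The strongest first-intron sites were occupied at both temperatures. The 10 with the highest scores, 1 a gene, all had a peak in the 29 °C list, and all had at least 2 times the WT value at 29 °C. Cry1, a core clock repressor, led them with a site 23.1 kb downstream of its TSS at chr10:84624568-84624768. It had 78.19 FPKM at 4 °C and 35.87 FPKM at 29 °C, against 4.25 and 3.40 FPKM in WT at 4 °C and 29 °C. Its 4 °C to 29 °C ratio was 2.18 (1.95 to 2.45). Abr had 75.68 FPKM at 4 °C and 50.01 FPKM at 29 °C at a site 1.12 kb upstream of its nearest annotated TSS (chr11:76323937-76324137), a ratio of 1.51 (1.37 to 1.68). Cdkn1a, the cell-cycle inhibitor p21, had 68.86 FPKM at 4 °C and 40.72 FPKM at 29 °C at a CpG-island site 0.936 kb from the TSS (chr17:29231550-29231750), a ratio of 1.69 (1.51 to 1.89). WT values at these 3 sites lay between 2.96 and 4.99 FPKM, so the HA-RevErbα pools stood far above WT at both temperatures.

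**Figure D1:**
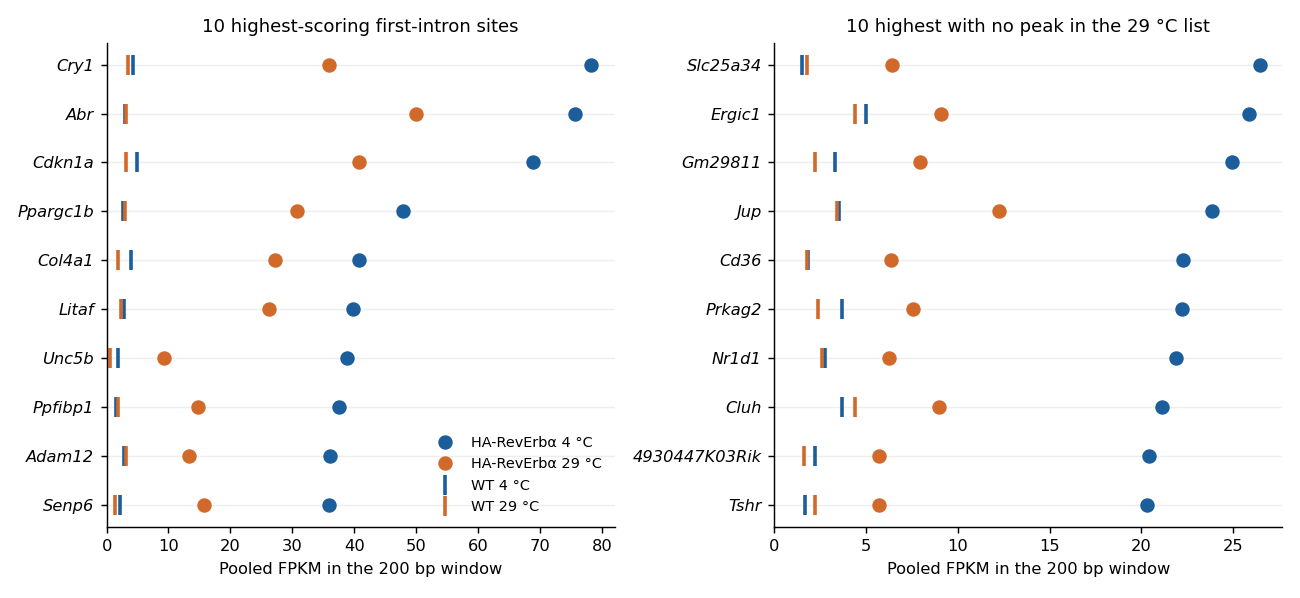
Pooled FPKM (horizontal axis) at the 10 highest-scoring first-intron sites (left panel) and at the 10 highest without a peak in the 29 °C list (right panel), 1 site a gene; circles are the HA-RevErbα pools and ticks the WT pools, blue for 4 °C and orange for 29 °C. In the left panel the 4 °C values run from 35.85 to 78.19 FPKM and the 29 °C values from 9.30 to 50.01 FPKM; in the right panel the 4 °C values run from 20.32 to 26.44 FPKM and the 29 °C values from 5.68 to 12.26 FPKM, and each of them lies above both WT ticks.

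Ppargc1b, a coactivator of mitochondrial genes, had a first-intron site at chr18:61543334-61543534 with 47.92 FPKM at 4 °C and 30.77 FPKM at 29 °C, against 2.59 and 3.0 FPKM in WT at 4 °C and 29 °C. The authors' nearest-TSS annotation gives it to Mir378a, a microRNA gene inside Ppargc1b. Unc5b, a netrin receptor, stood out among the 10 by its ratio of 4.18 (3.40 to 5.17). It had 38.83 FPKM at 4 °C and 9.30 FPKM at 29 °C, against 1.85 and 0.61 FPKM in WT at 4 °C and 29 °C. The other 5 were Col4a1 (basement membrane collagen), Litaf (an endosomal protein), Ppfibp1 (a liprin), Adam12 (a metalloprotease) and Senp6 (a SUMO protease), with ratios between 1.5 and 2.71. Of the 10 sites, 5 had 2 or more times as much signal at 4 °C.

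The 10 best first-intron sites without a 29 °C peak were weaker, and 9 of them had a ratio of 2 or more. The highest was in Slc25a34, with 26.44 FPKM at 4 °C and 6.42 FPKM at 29 °C, against 1.48 and 1.80 FPKM in WT at 4 °C and 29 °C. Cd36, the fatty acid uptake receptor, had 22.28 FPKM at 4 °C and 6.34 FPKM at 29 °C, a ratio of 3.52 (2.72 to 4.59). Tshr, the thyrotropin receptor, had 20.32 FPKM at 4 °C and 5.68 FPKM at 29 °C, a ratio of 3.58 (2.73 to 4.74). A stronger first-intron site of Tshr was listed at 29 °C. It had 29.65 FPKM at 4 °C and 15.80 FPKM at 29 °C, a ratio of 1.88 (1.57 to 2.25). Jup, encoding plakoglobin, was the lowest of the 10 in ratio at 1.95 (1.59 to 2.38), with 23.85 FPKM at 4 °C and 12.26 FPKM at 29 °C. The others were Ergic1, Gm29811, Prkag2 (a regulatory subunit of AMP-activated kinase), Nr1d1, Cluh (a mitochondrial mRNA-binding protein) and 4930447K03Rik. Ergic1, Gm29811 and Prkag2 also held first-intron sites that were listed at 29 °C, so the missing peak is that of the site and not of the gene. At 29 °C each of the 10 still had 2 or more times the WT signal. Their folds over WT at 29 °C were 2.04 to 3.62, below the about 4 times WT that sites of the 29 °C list reach.

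Across all 1924 first-intron windows the median was 7.07 FPKM at 4 °C and 2.31 FPKM at 29 °C, against 1.12 and 1.21 FPKM in WT at 4 °C and 29 °C. The medians rest on 90 reads at 4 °C and 28 at 29 °C, and on 6 reads in each WT pool. Windows in introns of higher number had medians of 7.07 FPKM at 4 °C and 2.39 FPKM at 29 °C. The median 4 °C to 29 °C ratio was 3.01 in first introns (10th to 90th percentile 1.72 to 5.54), 3.01 in introns of higher number and 3.05 in all sites. At least 2 times as much signal at 4 °C was found in 1604 first-intron windows (83.4%), where 83.4% of all windows in the list met that fold. At least 2 times as much at 29 °C was found in 2 first-intron windows, where 0.0802% of all windows met it. The counting interval of the ratio lay above 1 in 1834 windows (95.4% of all windows in the list did so), below 1 in 8 and across 1 in 82. The first-intron counts thus stood at the background of the whole list.

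These windows were selected for their 4 °C signal, and the ratio moves with that choice. In the 362 first-intron windows of the 29 °C list the medians were 10.91 FPKM at 4 °C and 5.93 FPKM at 29 °C, with 1.48 FPKM in WT at 4 °C and 0.81 FPKM in WT at 29 °C. Their median ratio was 1.62, and 122 windows (33.7%) had 2 or more times as much signal at 4 °C, against 31.5% of all windows in that list. There 11 windows had 2 or more times as much at 29 °C, with 3.99% of all windows in that list meeting that fold. In the 4 °C windows that overlap a 29 °C peak the WT 4 °C pool held 1.44 times as many reads per pool read as the WT 29 °C pool. Sites of the 29 °C list stand at about 4 times WT at 29 °C or more, so these windows are selected for low WT 29 °C values. That selection works to raise the factor by construction. Scaling the 29 °C pool by the factor of 1.44 gave a median ratio of 2.09 over the 1924 windows, with 54.1% at 2-fold or more. Over all 4 °C windows, and over the first-intron windows alone, that WT factor was 1.02, and scaling by the factor of all windows gave a median ratio of 2.95 with 82.3% at 2-fold or more. Whether pool composition has a part in the ratio was not tested.

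**Figure D2:**
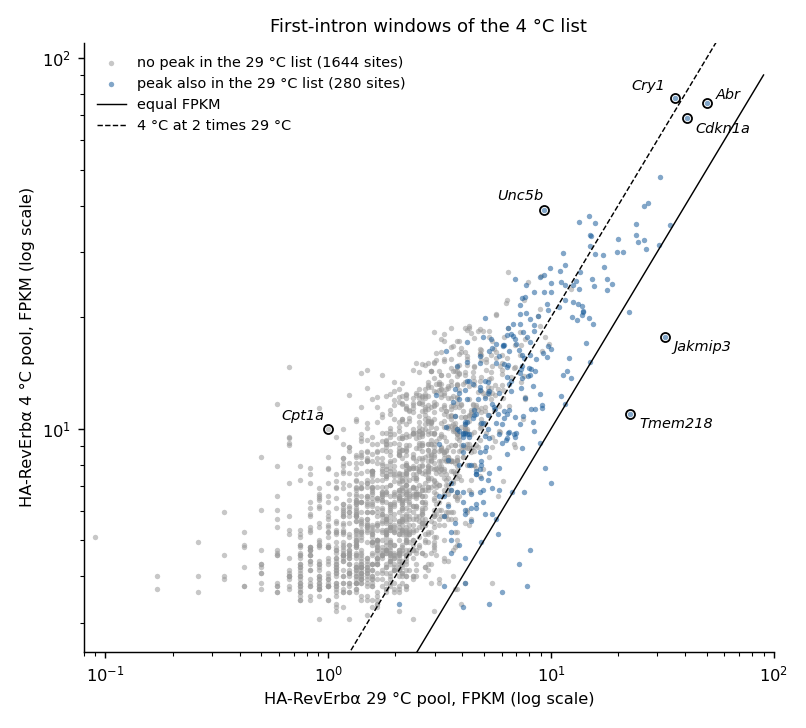
FPKM of the HA-RevErbα 4 °C pool (vertical, log scale) against the HA-RevErbα 29 °C pool (horizontal, log scale) in each of the 1924 first-intron windows; blue points also have a peak in the 29 °C list (280), grey points do not (1644), the solid line is equality and the dashed line a ratio of 2. Grey points sit mostly above the dashed line, and Jakmip3 and Tmem218 are the labelled sites below equality.

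At 29 °C many of these windows held little signal above background. HA-RevErbα had at least 2 times the WT value at 29 °C in 1028 first-intron windows, or 53.4% (51.2% to 55.7%), where 54.5% of all windows of the list and 55.8% of those in introns of higher number did. The median fold over WT at 29 °C was 2.06 in first introns and 2.23 in introns of higher number. In 249 first-intron windows (12.9%) the 29 °C value was not above WT, next to 13.8% in introns of higher number and 13.5% of all windows of the list. The WT 29 °C pool had 0 reads in 35 of the 1924 windows, and a count of 0 allows up to 3 reads, or 0.598 FPKM.

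Of the 1924 first-intron sites, 280 shared 1 bp or more with a 29 °C peak, or 14.6% (13.0% to 16.2%), where 14.9% of all 4 °C sites did. In introns of higher number 534 sites did, or 15.5% (14.3% to 16.8%). From the other list, 280 of the 362 first-intron 29 °C sites overlapped a 4 °C peak (77.3%), where 76.5% of all 29 °C sites did, and each partner was itself a first-intron row. The 280 shared sites had medians of 12.91 FPKM at 4 °C and 6.51 FPKM at 29 °C and a median ratio of 1.83. The 1644 sites of the 4 °C list alone had medians of 6.60 FPKM at 4 °C and 2.07 FPKM at 29 °C and a median ratio of 3.25. Since a low 29 °C value, or a low fold over WT there, keeps a site out of the 29 °C list, that order is set by the lists.

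**Figure D3:**
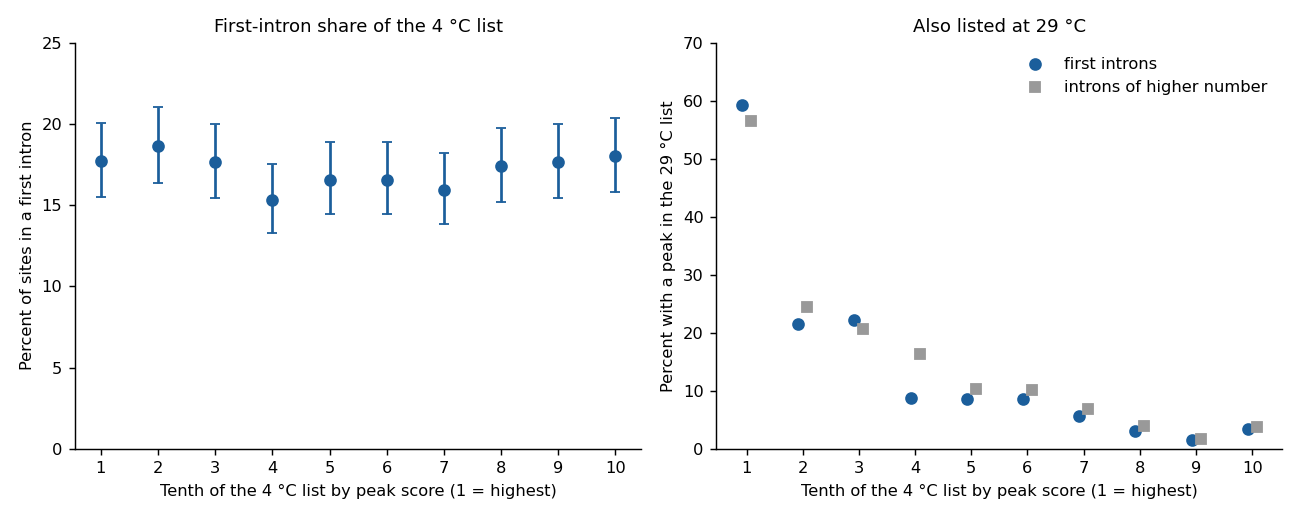
Left panel, percent of sites that lie in a first intron (vertical axis) in each decile of the 4 °C list by peak score (horizontal axis, 1 is the highest), with exact 95% intervals as bars; right panel, percent of sites that also have a peak in the 29 °C list, for first introns (circles) and introns of higher number (squares). The first-intron share stays between 15.3% and 18.6%, and the share also listed at 29 °C is 59.3% of first-intron sites in the top decile and 21.5% in the next.

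The first-intron share hardly varied with peak strength. By deciles of the list it lay between 15.3% and 18.6%, and the top 50 sites held 7 (14%, interval 5.82% to 26.7%). The top 50 of the 29 °C list held 13 (26%, 14.6% to 40.3%), and these intervals overlap. Whether a first-intron site was also listed at 29 °C went with its score: 118 of 199 in the top decile were, or 59.3%, next to 56.5% of sites in introns of higher number in that decile. In the lowest 3 deciles the first-intron share listed at 29 °C was between 1.5% and 3.5%.

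Among shared sites the ratio still ranged widely. Ptk2b, a kinase of the focal adhesion kinase family, had the highest, with 16.24 FPKM at 4 °C and 3.38 FPKM at 29 °C, a ratio of 4.81 (3.43 to 6.91). It was followed by Unc5b, Lmtk2 (a membrane kinase), Fam222a and Lipc (hepatic lipase), at ratios of 3.95 to 4.18. At the other end the 29 °C pool held more signal. Jakmip3 had 17.73 FPKM at 4 °C and 32.41 FPKM at 29 °C, with 0.75 and 0.81 FPKM in WT at 4 °C and 29 °C, a ratio of 0.547 (0.462 to 0.646). Tmem218, a ciliary membrane protein gene, had 10.99 FPKM at 4 °C and 22.71 FPKM at 29 °C, a ratio of 0.484 (0.392 to 0.595), at a window over a simple repeat. Sh3rf3 (0.482), Thrb, encoding a thyroid hormone receptor (0.584), and Stx18, a syntaxin gene (0.601), completed the 5 lowest ratios. Sh3rf3, Thrb and Stx18 had 3.62 to 4.71 FPKM at 4 °C and 6.01 to 8.07 FPKM at 29 °C, and the interval of each lay below 1. Another first-intron site of Thrb, with a higher score and not listed at 29 °C, went the other way. It lay at chr14:18518080-18518280 and had 12.63 FPKM at 4 °C and 4.86 FPKM at 29 °C, a ratio of 2.60 (1.92 to 3.57).

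Ratios were most extreme where the 29 °C pool had few reads. Pcca, a subunit of propionyl-CoA carboxylase, had 14.67 FPKM (187 reads) at 4 °C and 0.67 FPKM (8 reads) at 29 °C, against 1.85 and 1.60 FPKM in WT at 4 °C and 29 °C. Its ratio was 22.3, with an interval of 11.1 to 52.4. Mctp1 (20.3), D030025E07Rik (20), Abhd17c (18.1) and Platr26 (17.0) followed, each with 3 to 7 reads at 29 °C. At all 5 the 29 °C value was less than 2 times WT, so these ratios compare a 4 °C peak with background.

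The 82 first-intron sites of the 29 °C list without a 4 °C peak were mostly not sites without 4 °C signal. Their medians were 5.19 FPKM at 4 °C and 4.29 FPKM at 29 °C, with 1.67 FPKM in WT at 4 °C and 0.61 FPKM in WT at 29 °C, and the median ratio was 1.13. The counting interval lay above 1 at 25, below 1 at 15 and across 1 at 42. Dot1l, a histone H3 methyltransferase, had 14.20 FPKM at 4 °C and 8.48 FPKM at 29 °C, against 3.70 and 1.80 FPKM in WT at 4 °C and 29 °C. Slc25a17, a peroxisomal carrier gene, had 14.05 FPKM at 4 °C and 8.07 FPKM at 29 °C, against 3.88 and 1.80 FPKM in WT at 4 °C and 29 °C. In both genes the 4 °C value stood below the about 4 times WT that sites of the 4 °C list reach. Fam110b went the other way, with 2.83 FPKM at 4 °C and 9.06 FPKM at 29 °C, a ratio of 0.312 (0.208 to 0.458). Gfod1 had a ratio of 0.658 (0.495 to 0.872), and Ptprg, a receptor tyrosine phosphatase, 0.830 (0.636 to 1.08). Both genes also held first-intron sites of the 4 °C list with ratios above 1. Gfod1 had 7 of them, with ratios of 1.33 to 3.21, and the interval lay above 1 at 6. Ptprg had 5, with ratios of 2.51 to 6.27 and all intervals above 1.

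First-intron sites differed from other intron sites in position. Their median distance to the nearest TSS was 11.8 kb (10th to 90th percentile 1.63 to 57.4 kb), next to 35.4 kb in introns of higher number. Within 10 kb of a TSS lay 874 first-intron sites (45.4%) and 543 sites in introns of higher number (15.8%). Intron 1 starts nearer to the TSS than later introns by construction. The authors' detailed annotation, which gave a CpG-island label to intron and intergenic rows only, marked 19 first-intron sites (0.988%), 8 sites in introns of higher number (0.232%) and 33 intergenic sites (0.663%).

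**Figure D4:**
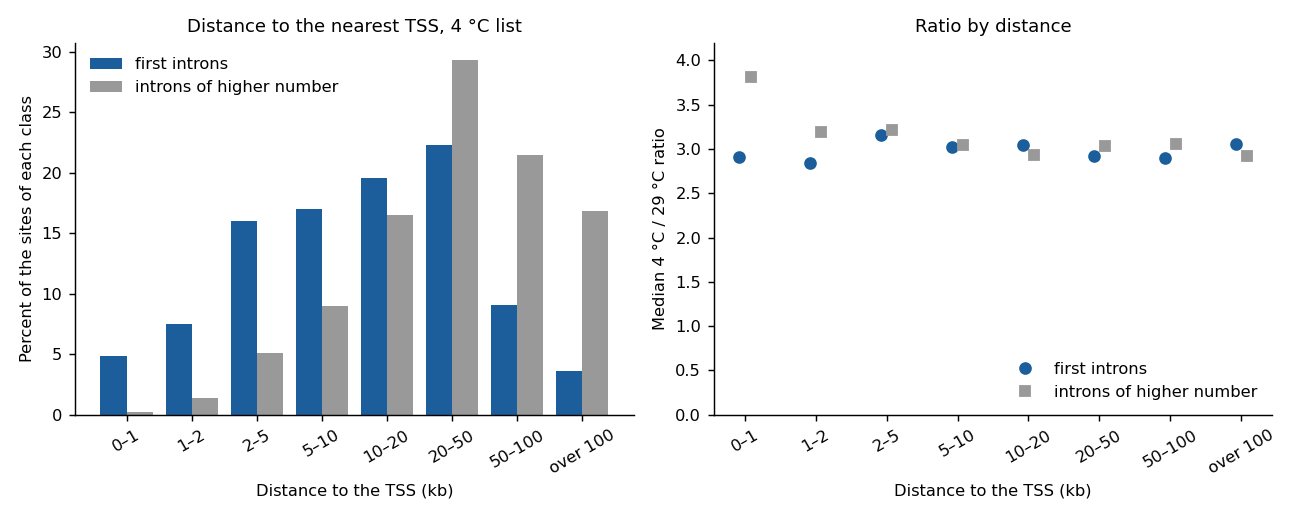
Left panel, percent of sites (vertical axis, bars from 0) by distance to the nearest TSS in kb (horizontal axis) for first introns (blue) and introns of higher number (grey) of the 4 °C list; right panel, median 4 °C to 29 °C ratio in the same bins. First-intron sites are nearer, with medians of 11.8 kb against 35.4 kb, and the median ratio lies between 2.85 and 3.16 in first introns and between 2.92 and 3.81 in introns of higher number, whose nearest bin, the highest, has 9 sites.

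The ratio varied little with distance. Over the 8 distance bins the median ratio in first introns was 2.85 to 3.16. In introns of higher number it was 2.92 to 3.21 in 7 bins and 3.81 within 1 kb, where the bin held 9 sites. The sites nearest to a TSS were in Prn (0.137 kb), Myo18a, an unconventional myosin (0.140 kb), Tspan12, a tetraspanin (0.183 kb), Mrpl48, a mitochondrial ribosomal protein (0.204 kb), and Akna (0.228 kb), with 3.46 to 11.14 FPKM at 4 °C and 0.75 to 6.18 FPKM at 29 °C. The farthest lay in Kcnd2, a potassium channel (295 kb), Adarb2, an RNA editing family member (282 kb), Lhfpl3 (−269 kb), Negr1, a cell adhesion protein (256 kb), and Rora (−246 kb), where minus means upstream of the nearest TSS. These 5 had 4.01 to 5.81 FPKM at 4 °C and 1.57 to 2.97 FPKM at 29 °C.

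The gene that holds the intron, called the host gene below, was usually also the nearest gene. Of 1913 first-intron sites whose transcript matched the gene table, 1720 (89.9%, interval 88.5% to 91.2%) had the host gene as the nearest gene, next to 62.6% in introns of higher number. Of these, 1608 lay downstream of the nearest TSS, and 112 lay upstream of a start of the same gene. For 193 sites (10.1%) the nearest TSS belonged to another gene, as at Ppargc1b (Mir378a), Col4a1 (Col4a2), Unc5b (Slc29a3), Ppfibp1 (1700034J05Rik) and Pde3a, a cyclic nucleotide phosphodiesterase (Gm10400). Host genes numbered 1225, of which 72 (5.88%) also had a promoter site, 412 (33.6%) a site in a later intron and 773 (63.1%) neither. The 29 °C list gave 300 host genes, of which 265 were host genes in the 4 °C list too. 

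Many host genes carried more than 1 first-intron site. A single site was found in 831 genes, and 394 genes held 2 or more, 1082 sites in all. Of the 30 genes with 5 or more, 17 had at least 1 site that was listed at 29 °C, and 28 of their 185 sites (15.1%) were. Within genes the log2 ratio had an SD of 0.623, next to 0.709 over all sites. Col4a1 and Galnt18 held 9 sites each, and Tbc1d4, Prkd1, Prkce and Arhgap26 were among the genes with 8.

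Col4a1 shows that sites of one intron can differ. Its 9 sites spanned 37.9 kb of chromosome 8, all with Col4a2, the divergent collagen gene, as nearest gene. Ratios ran from 1.24 to 4.16. The lowest belonged to a site at chr8:11279399-11279599 with 32.40 FPKM at 4 °C and 26.16 FPKM at 29 °C, against 3.88 and 2.20 FPKM in WT at 4 °C and 29 °C. The highest belonged to a site with 18.12 FPKM at 4 °C and 4.37 FPKM at 29 °C, and 3 of the 9 sites were listed at 29 °C. In Galnt18, a GalNAc transferase, the strongest site had 24.63 FPKM at 4 °C and 18.76 FPKM at 29 °C, a ratio of 1.31 (1.10 to 1.56), while the largest ratio in the intron was 6.75. Tbc1d4, a GTPase-activating protein of insulin-regulated glucose transporter traffic, had ratios of 1.14 to 4.22 over 8 sites, with 3 listed at 29 °C. Prkce, encoding a protein kinase C, had 8 sites spread over 137 kb, none listed at 29 °C, with ratios of 2.60 to 8.69. Prkd1, another protein kinase, and Arhgap26, a GTPase-activating protein, each had 2 or more times as much signal at 4 °C at all 8 sites.

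**Figure D5:**
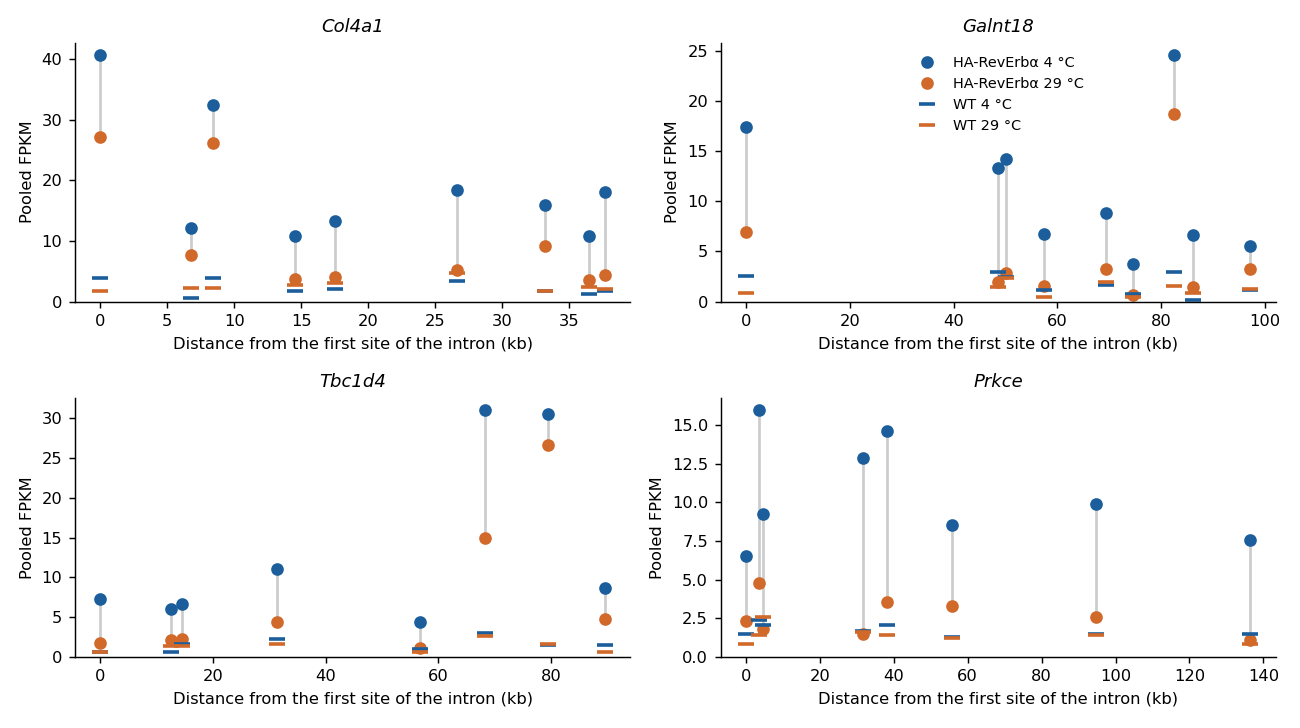
Pooled FPKM (vertical axis, from 0) of each first-intron site of Col4a1, Galnt18, Tbc1d4 and Prkce by distance from the first site of the intron in kb (horizontal axis); circles are HA-RevErbα pools and dashes WT pools, blue for 4 °C and orange for 29 °C, and grey bars join the HA-RevErbα pools of a site. In Col4a1, Galnt18 and Tbc1d4 strong sites with high 29 °C signal sit beside sites near WT at 29 °C, and in Prkce no site exceeds 4.78 FPKM at 29 °C.

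Gene lists were read against all protein-coding genes, of which 23.5% had a 4 °C site of any kind and 5.43% hosted one in a first intron, or 23.1% of those with a site. Each member is given by its highest-scoring first-intron site unless another is named. Of 25 matched circadian clock genes, output genes such as Dbp among them, 17 had a site of any kind and 6 hosted one in the first intron. Besides Cry1 and Nr1d1 these were Rora, a receptor that activates through the same DNA element, Nfil3 and Per2, clock repressors, and Arntl, the clock's Bmal1 activator and a textbook Rev-Erbα target. Rora had 32.00 FPKM at 4 °C and 24.68 FPKM at 29 °C, against 1.85 and 1.60 FPKM in WT at 4 °C and 29 °C, a ratio of 1.30 (1.11 to 1.51). Nfil3 had 18.75 FPKM at 4 °C and 3.55 FPKM at 29 °C, a ratio of 5.30 (3.82 to 7.51). A second first-intron site of Nfil3, at chr13:53070173-53070373, had 13.03 FPKM at 4 °C and 8.32 FPKM at 29 °C, a ratio of 1.57 (1.22 to 2.03), and was listed at 29 °C. Arntl had 9.34 FPKM at 4 °C and 1.82 FPKM at 29 °C, with 0.93 FPKM in WT at 4 °C and 1.80 FPKM in WT at 29 °C, so its 29 °C value was level with WT. Per2 had a ratio of 5.07 (3.29 to 8.12). The Rora and Cry1 sites shown were the only 2 of the 6 best sites with a 29 °C peak.

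Thermogenesis genes held first-intron sites in 7 of 25 members, with 15 having a site of any kind, next to 5.43% and 23.5% of all protein-coding genes. They were Ppargc1b, Otop1 (a proton channel), Esrrg (an orphan receptor of mitochondrial genes), Gk (glycerol kinase), Kcnk3 (a potassium channel), Prdm16 (a brown fat determination factor) and Dio2 (the deiodinase that makes active thyroid hormone). Otop1 had 14.05 FPKM at 4 °C and 3.88 FPKM at 29 °C, a ratio of 3.63 (2.62 to 5.12). Dio2 had 5.26 FPKM at 4 °C and 0.83 FPKM at 29 °C, below the 2.20 FPKM of WT at 29 °C. Ucp1, Cidea, Ppargc1a, Adrb3 and Elovl3 had 4 °C sites, none of them in their own first introns. Of 10 brown adipocyte markers, 3 hosted a first-intron site and 9 had a site of any kind.

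Fatty acid and sterol synthesis had first-intron sites in 5 of 25 members, namely Acaca and Acacb (acetyl-CoA carboxylases), Elovl5 (fatty acid elongation), Mlxipl (the glucose-sensing factor ChREBP) and Me1 (malic enzyme). A 4 °C site of any kind was found in 17 of the 25, next to 23.5% of all protein-coding genes. Acaca had 17.73 FPKM at 4 °C and 5.27 FPKM at 29 °C, a ratio of 3.37 (2.54 to 4.52), and no best site of the 5 was listed at 29 °C. Fatty acid oxidation had 4 of 23, Ehhadh (a peroxisomal enzyme), Acsl5 (an acyl-CoA synthetase), Cpt1a (mitochondrial fatty acid import) and Ppard (a fatty acid-sensing receptor). Of these 23 members, 14 had a site of any kind. Cpt1a had 9.97 FPKM at 4 °C and 1.0 FPKM at 29 °C, with 1.48 FPKM in WT at 4 °C and 1.01 FPKM in WT at 29 °C, a ratio of 10.1 (5.58 to 20). Ehhadh had 22.52 FPKM at 4 °C and 7.41 FPKM at 29 °C and was also listed at 29 °C.

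Triglyceride handling had 4 of 21 members, Cidec (lipid droplet fusion), Abhd5 and Lipe (lipolysis) and Agpat3 (glycerolipid synthesis). A site of any kind was found in 18 of the 21. Of all protein-coding genes with a site, 23.1% hosted one in a first intron. Abhd5 had 12.16 FPKM at 4 °C and 1.65 FPKM at 29 °C, a ratio of 7.39 (4.62 to 12.4). Lipe had 11.14 FPKM at 4 °C and 2.31 FPKM at 29 °C, a ratio of 4.84 (3.21 to 7.54), and none of these 4 had 2 times the WT value at 29 °C. Lipid uptake had 4 of 15, Cd36, Scarb1 (an HDL receptor), and Abcg1 and Abca1 (cholesterol exporters), with ratios of 3.19 to 4.01. Any site was found in 10 of these 15. Glycolysis had 5 of 26, Hk2, Pfkfb3, Pfkp, Pkm and Pdk1, from hexokinase to the kinase that inhibits pyruvate dehydrogenase. Any site was found in 14 of these 26. Hk2 had 15.77 FPKM at 4 °C and 7.41 FPKM at 29 °C, and Pfkp had 10.05 FPKM at 4 °C and 1.90 FPKM at 29 °C.

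Adipocyte transcription factors had 8 of 27 members with a first-intron site and 23 with a 4 °C site of any kind. Pparg, the master factor of fat cells, had 17.26 FPKM at 4 °C and 3.30 FPKM at 29 °C, against 2.96 and 2.0 FPKM in WT at 4 °C and 29 °C, a ratio of 5.24 (3.73 to 7.54). Klf15 (5.05), Foxo1 (4.96) and Nr3c1, the glucocorticoid receptor (4.95), were close to it, while Nfic stood at 1.73 (1.17 to 2.58). The list's median best-site ratio was 5.11, next to 3.0 over the best sites of all host genes, and 7 of 8 reached 2-fold, next to 81.6% of them. In the adrenergic list 5 of 25 members had a first-intron site and 18 a site of any kind, and the median best-site ratio was 1.76. Adcy5, an adenylyl cyclase, had 29.96 FPKM at 4 °C and 19.75 FPKM at 29 °C, a ratio of 1.52 (1.29 to 1.79), while Pde4b, a cAMP phosphodiesterase, had 6.44 FPKM at 4 °C and 1.33 FPKM at 29 °C.

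Insulin signalling had 5 of 20 members, Akt2, Foxo1, Pik3r1, Irs1 and Egfr, and 15 members had a 4 °C site of any kind. Akt2 had 16.24 FPKM at 4 °C and 9.14 FPKM at 29 °C, a ratio of 1.78 (1.41 to 2.26), the lowest of the 5. The list's median best-site ratio was 4.77, next to 3.0 over the best sites of all host genes. At 2-fold or more were 4 of the 5, next to 81.6% of those sites. Corepressors and cofactors had 3 of 14 members, among them Ncor1, the NCoR scaffold, and Tbl1x, a subunit of its complex. A site of any kind was found in 6 of the 14. Ncor1 had 6.68 FPKM at 4 °C and 1.82 FPKM at 29 °C, a ratio of 3.68 (2.28 to 6.19). Tbl1x had 12.01 FPKM at 4 °C and 4.2 FPKM at 29 °C, a ratio of 2.86 (2.07 to 4.01). Over all lists, 63 of 305 genes hosted a first-intron site, next to 5.43% of all protein-coding genes. The 23.1% given above is a share of genes with a 4 °C site of any kind, a smaller base than all list members. The lists were chosen with earlier results of these data known, so the 63 of 305 says nothing particular about them.

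Because the tissue is bulk, sites cannot be assigned to a cell type. Endothelial markers hosted first-intron sites in 4 of 12 members (Eng, Esam, Tek and Flt1) and had a 4 °C site of any kind in 12 of 12, where 23.5% of protein-coding genes had any site and 23.1% of these hosted a first-intron site. Eng had 16.09 FPKM at 4 °C and 5.68 FPKM at 29 °C, and the 4 best-site ratios ran from 2.43 to 2.83. White adipocyte markers had 1 of 11 (Adipoq), skeletal muscle 1 of 12 (Mb), smooth muscle and pericytes 1 of 10 (Pdgfrb) and nerve and Schwann cells 1 of 10 (Mbp). Macrophage markers had 0 of 12. A 4 °C site of any kind was found in 5 of the white adipocyte, 2 of the skeletal muscle and 4 of the smooth muscle and pericyte markers. Nerve and Schwann cell markers had 2 with any site and macrophage markers 1. Whether sites at these genes come from brown adipocytes was not tested.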

How the data were processed

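Anti-HA ChIP-seq of brown adipose tissue was deposited as an aligner log for each of 12 libraries and as 2 annotated peak lists, 1 a temperature, made on pooled libraries per the file headers. The submitters' processing notes name build mm9, HOMER 4.10 and Bowtie2 2.1.0 and give no roles; how peaks were called and duplicates handled is not stated there. FPKM values, as deposited, count reads per kilobase of window (200 bp) and per M pool reads, plus 0.01. The score deposited by the authors equals the reads per 10 M reads of the pool. The other deposited columns used, per the file headers, are distance to TSS in bp and HA-RevErbα minus WT FPKM. The lists hold sites at least 3 FPKM above WT and about 4 times WT (lowest folds 3.99 and 3.97). The files do not say whether starts count from 0 or 1, so coordinates are printed as given.

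All FPKM were whole multiples of 1 read per pool (100% within 0.01 FPKM), which gave pools of 63.8 M (HA-RevErbα 4 °C), 60.8 M (HA-RevErbα 29 °C), 27.1 M (WT 4 °C) and 25.1 M (WT 29 °C) reads, or 49.8%, 49.2%, 43.9% and 39.5% of the aligned reads. The reads were used for ratios and exact Clopper-Pearson intervals at 95%, which cover counting error only; no count model or test was run between pools, since 1 pool a group allows none. The read recovery and intervals were tested on simulated data. Distances, classes and nearest genes are the authors' annotation; the host gene was found through the transcript's RefSeq accession in a GRCm38.p6 table used for names only. The test of library depth was an exact permutation test, two-sided, and its p-values measure only the spread between libraries. Python 3.11.15, pandas 2.3.3 and scipy 1.17.1 were used.

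Sites overlap when they share at least 1 bp. Named genes followed 1 rule, 1 site a gene: the 10 highest scores, overall and among sites without a 29 °C peak; the 5 largest and smallest ratios among shared sites; the 5 largest ratios with at least 3 reads at 29 °C; the 5 highest scores where the nearest gene is another gene; the 5 genes with most sites; the 5 nearest to and farthest from a TSS; up to 6 members of each of 18 gene lists; the 5 highest first-intron sites of the 29 °C list without a 4 °C peak; and the 5 highest scores in introns of higher number. Promoters of genes on chromosome 18 were not considered for printing. Genes with 8 sites tie. Some genes that the rule names are not reported here. Members, lists and rules were chosen with earlier results of these data known.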

Additional observations from a re-analysis of the deposited data

How the results depend on the processing

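Between them, 25 of the recomputed values were counted as staying within the counting error or spread of the reported value, 19 moved and 3 reversed. The count of sites whose host gene is the nearest gene, 1720 in place of 1924, was among the 25 but lies outside the counting error. Keeping only sites at least 6 FPKM above WT left 943 first-intron sites, and keeping only sites at least 8 times WT left 560, with a first-intron share of 16.0% of the 4 °C list, a median ratio of 2.84 and 78.9% at 2-fold or more. The host gene was the nearest gene at 87.9% of those at least 8 times WT. The share with 2 times WT at 29 °C became 61.8% (6 FPKM) and 67.1% (8 times WT), and 41.6% with 0.5 FPKM added to both. The median ratio was 2.64 with 0.5 FPKM and 2.39 with 1 FPKM added, 2.60 in windows with at least 20 reads at 29 °C, 2.09 with the 29 °C pool scaled by WT reads over windows with a 29 °C peak and 1.62 in windows of the 29 °C list. The percent at 2-fold or more was 78.3% and 72.2% with those additions, 77.0% with at least 20 reads, 54.1% with that scaling and 33.7% in windows of the 29 °C list. In each of these settings the median ratio stayed above 1. Offsets and read minimums lower high ratios by construction; the cause of the other moves was not tested. The settings with 6 FPKM or 8 times WT for the shares of list and host gene, and the gene lists by nearest gene (61 genes in place of 63), were chosen after seeing the data. The difference in library depth, 1.06 M reads between the HA-RevErbα 4 °C and 29 °C means, ranged from −0.703 to 3.07 M reads when each library was left out in turn (p from 0.314 to 0.971, exact permutation test); it was −0.703 M without the library titled HA_RevA_BAT_4ºC_3031, −0.257 M without HA_RevA_BAT_29ºC_3017 and −0.0957 M without HA_RevA_BAT_29ºC_3028. No paired analysis was possible because the site values are pooled over libraries. With 1 pool a group, library-to-library spread of a site's signal cannot be seen; a window with few reads at 29 °C has a wide ratio interval.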

Other observations

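First-intron sites lay in transcripts with a median of 9 introns (1 to 97), next to 13 for sites in introns of higher number. The 86 sites in transcripts with a single intron were listed at 29 °C in 20.9% of cases (interval 12.9% to 31.0%), which holds the 14.6% of all first-intron sites. Among sites of all introns, 35.8% fell in intron 1, 18.6% in intron 2, 10.7% in intron 3 and 23.7% in intron 6 or later.

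Windows over annotated repeats made up 270 first-intron sites (14.0%), next to 13.4% in introns of higher number and 15.8% of intergenic sites; the detailed annotation labels repeats in intron and intergenic rows only. SINE copies gave 87 of them, LTR elements 79, LINE copies 59 and DNA transposons 30. The median 4 °C to 29 °C ratio was 3.21 in SINE, 3.12 in LTR, 3.03 in LINE and 3.42 in DNA transposon windows, next to 3.01 in all first-intron windows.

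The highest-scoring sites in introns of higher number give a yardstick. The 5 genes were 1700010I14Rik, Spns1 (a lysosomal lipid transporter), Zbtb16 (a transcription factor), Cars2 (a mitochondrial tRNA synthetase) and Mad1l1 (a spindle checkpoint protein), with 53.02 to 79.44 FPKM at 4 °C and 23.70 to 51.90 FPKM at 29 °C. Zbtb16 had 53.72 FPKM at 4 °C and 51.90 FPKM at 29 °C, a ratio of 1.04 (0.928 to 1.16). The counting interval of Zbtb16 crossed 1, and those of the other 4 lay above 1.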
